A study of Mus musculus with 28 samples.

Results

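The comparison describes livers of Aag null mice taken 6 h after methyl methanesulfonate (MMS), a chemical that methylates DNA, against livers of untreated Aag null mice. Its members were chosen by their titles: 3 arrays of Aag null liver at 6 h and 4 arrays of untreated Aag null liver, out of 28 arrays in the series. The series set Aag null and wild-type (WT) mice side by side, untreated and at 6, 12, 24 and 48 h after MMS. Total RNA of whole liver was hybridised to 1 Affymetrix mouse expression array per sample. The groups used are Aag null at 6 h after MMS (n = 3), Aag null at 12 h (n = 2), Aag null at 24 h (n = 4, means over time only), Aag null at 48 h (n = 3), WT at 6 h (n = 2) and untreated Aag null (n = 4), called Aag 6 h, Aag 12 h, Aag 24 h, Aag 48 h, WT 6 h and Aag untreated. All Aag groups share the null allele, and the labels give neither its construction nor the MMS dose, strain, age or sex. The labels do not say that replicates came from separate animals, so each p-value measures only the spread between these samples. That spread was pooled over all groups in the fit, WT and later times included. The number of arrays limits the precision.

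Aag, the alkyladenine DNA glycosylase encoded by Mpg, opens base excision repair by cutting methylated bases such as 3-methyladenine out of DNA, and the resulting gap is filled and sealed by further repair enzymes. Liver cells answer chemical stress through several transcript programmes. Metallothioneins bind zinc and other metals and are induced by metals, glucocorticoids and inflammation. The unfolded protein response raises chaperones of the endoplasmic reticulum when proteins there misfold, and p53 raises genes of cell cycle arrest and death after DNA damage.

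The promoters of the metallothionein pair and of an endoplasmic reticulum chaperone are shown because the largest rise among called genes was in a metallothionein and because the chaperone genes separated 1 treated array from the others. The sequences are from RefSeq on GRCm38.p6, and each holds 300 bases around the annotated start, read 5′ to 3′ on the gene's strand. Mt1 lies at chr8:94178839-94179138 and Mt2 at chr8:94172368-94172667, both on the + strand. Capitals mark matches on either strand to TGCNCNC. This pattern is looser than TGCRCNC (R for A or G), the core of the metal response element bound by the zinc sensor Mtf1. The Mt2 matches TGCTCTC and GGGAGCA fit only the looser pattern.
Mt1: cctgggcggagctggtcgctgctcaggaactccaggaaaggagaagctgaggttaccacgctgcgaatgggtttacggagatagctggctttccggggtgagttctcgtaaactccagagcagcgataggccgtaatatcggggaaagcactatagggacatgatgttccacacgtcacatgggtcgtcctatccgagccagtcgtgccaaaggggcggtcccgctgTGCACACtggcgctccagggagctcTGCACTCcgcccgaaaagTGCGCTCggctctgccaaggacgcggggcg
Mt2: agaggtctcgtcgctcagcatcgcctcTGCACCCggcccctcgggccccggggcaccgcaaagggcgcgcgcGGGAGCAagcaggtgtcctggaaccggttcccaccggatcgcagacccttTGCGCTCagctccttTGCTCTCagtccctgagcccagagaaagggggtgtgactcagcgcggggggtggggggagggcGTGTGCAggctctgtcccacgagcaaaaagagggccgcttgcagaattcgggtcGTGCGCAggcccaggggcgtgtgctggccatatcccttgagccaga
Mt1 held 3 matches and Mt2 held 6, and no marked match overlapped another. TGCNCNC is short, and 51% of 32851 RefSeq promoters of this length held it, while 0.225% held 6 or more. Hspa5, the main chaperone of the endoplasmic reticulum, lies at chr2:34771840-34772139 on the + strand and was chosen for display after its values were seen. Capitals mark a match to the endoplasmic reticulum stress element, searched by its consensus on both strands.
Hspa5: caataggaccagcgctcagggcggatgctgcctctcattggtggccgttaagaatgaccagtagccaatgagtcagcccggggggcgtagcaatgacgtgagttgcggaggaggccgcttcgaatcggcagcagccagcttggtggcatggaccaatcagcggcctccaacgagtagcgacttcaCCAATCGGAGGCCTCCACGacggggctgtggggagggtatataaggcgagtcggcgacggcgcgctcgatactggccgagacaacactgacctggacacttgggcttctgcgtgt
Hspa5 held 1 match, and 0.119% of the 32851 promoters held any. Of the 23 unfolded protein response genes tested here, 20 had a promoter entry and 7 of these had a match, against 0.137% of 27025 genes with an entry. These shares come from sequence and from a list written from general knowledge, and say nothing of the signals on these arrays. A match describes letters in the window and is not evidence of binding.

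Values are log2 signals after quantile normalization, 1 probe set per gene, and the word called stands for a Benjamini-Hochberg adjusted p under 0.05 over 5487 genes by limma. Errors of differences are standard errors (SE) from the fit. The 28 arrays fell into sets by 9 hybridization control probe sets, transcripts added to each sample: 5 arrays averaged 10.25 to 11.65 and the other 23 averaged 6.42 to 9.22. The Aag 6 h arrays had 6.59, 8.63 and 8.47, and Aag untreated replicates 1 to 4 had 8.17, 8.09, 10.25 and 10.63. Changes are therefore also given against Aag untreated replicates 1 and 2 alone, whose controls lie close to those of Aag 6 h replicates 2 and 3 and above that of Aag 6 h replicate 1. The 3′ minus 5′ Gapdh signal, which follows RNA integrity, was 0.13, -0.17 and -0.29 in Aag 6 h arrays, against -0.19, 0.02, 0.64 and 0.67 in Aag untreated arrays. The same measure for actin was 0.81, 0.30 and 0.22 in Aag 6 h arrays, against 0.48, 0.26, 1.00 and 0.81 in Aag untreated arrays. By actin, Aag 6 h replicate 1 thus lay near untreated replicates 3 and 4. Aag 6 h replicate 1 stood apart from its group, with correlations across genes of 0.914 and 0.934 with replicates 2 and 3, which correlated at 0.985 with each other. Its closest array was WT 6 h replicate 1, at 0.984, whose hybridization controls were 6.42. Aag untreated replicate 3 carried transcripts typical of female liver, with Cyp2b9 at 7.73, against 2.89 to 3.38 in Aag 6 h arrays and 3.00 to 4.21 in the other Aag untreated arrays. The part of these array differences in the results was not tested, and calls lost without single arrays are given with the genes concerned.

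Mpg, the targeted gene, was dim and below the filter of the test. It gave 2.41 in each of the 3 Aag 6 h arrays, against 2.40, 2.33, 2.35 and 2.30 in Aag untreated arrays and a mean of 2.73 ± 0.16 (SD, n = 3) in untreated WT arrays. The labels do not say whether its probes lie in the deleted stretch, so the signal does not check the genotype. The labelled tissue was plain: the 13 tested markers of hepatocytes, among them albumin, averaged 9.19 to 9.34 in Aag 6 h arrays and 9.14 to 9.26 in Aag untreated arrays.

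At 6 h after MMS, few genes passed the test against untreated Aag null liver. Among the genes called higher in each comparison, metallothionein Mt1 and the bile acid enzyme Cyp7a1 had the largest changes. Against all 4 untreated arrays 28 of 5487 genes were called (0.510%), 15 higher (0.273%) and 13 lower (0.237%), and 761 had an unadjusted p under 0.05 (13.9%; 6.98% higher and 6.89% lower). Against untreated replicates 1 and 2 alone 11 were called (0.200%), 9 higher (0.164%) and 2 lower (0.0364%), with 470 at an unadjusted p under 0.05 (8.57%; 4.63% higher and 3.94% lower). Mt1, Cyp7a1, Chmp7, Tbl2 and Egr1 were called both ways. All 28 genes kept their sign and an unadjusted p under 0.05 against replicates 1 and 2, though 19 of the 28 changes were smaller there. That comparison reuses arrays that gave the 28 calls, so it is not an independent check of them. In whole liver, fewer cells of a type and less RNA per cell cannot be told apart. The plot of called genes sets both comparisons side by side. These counts rest on single arrays: without Aag 6 h replicate 1, no gene was called against all 4 by limma (774 at an unadjusted p under 0.05), and 4 were called against replicates 1 and 2, namely Mt1, Cyp7a1, Dbp and Egr1. Without Aag untreated replicate 1 or 2 the count against all 4 was 133 or 82, and without replicate 3 or 4 it was 5. Without Aag 6 h replicate 2 or 3 it was 11 or 10. Chmp7, Cyp7a1 and Egr1 each kept the call against all 4 in 6 of the 7 fits that left out 1 array, Mt1 in 5 and Tbl2 in 3. The other 23 genes kept it in 1 to 4. With array weights, where 98 genes were called against all 4, Mt1 and Cyp7a1 were not among them.

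**Figure D1:**
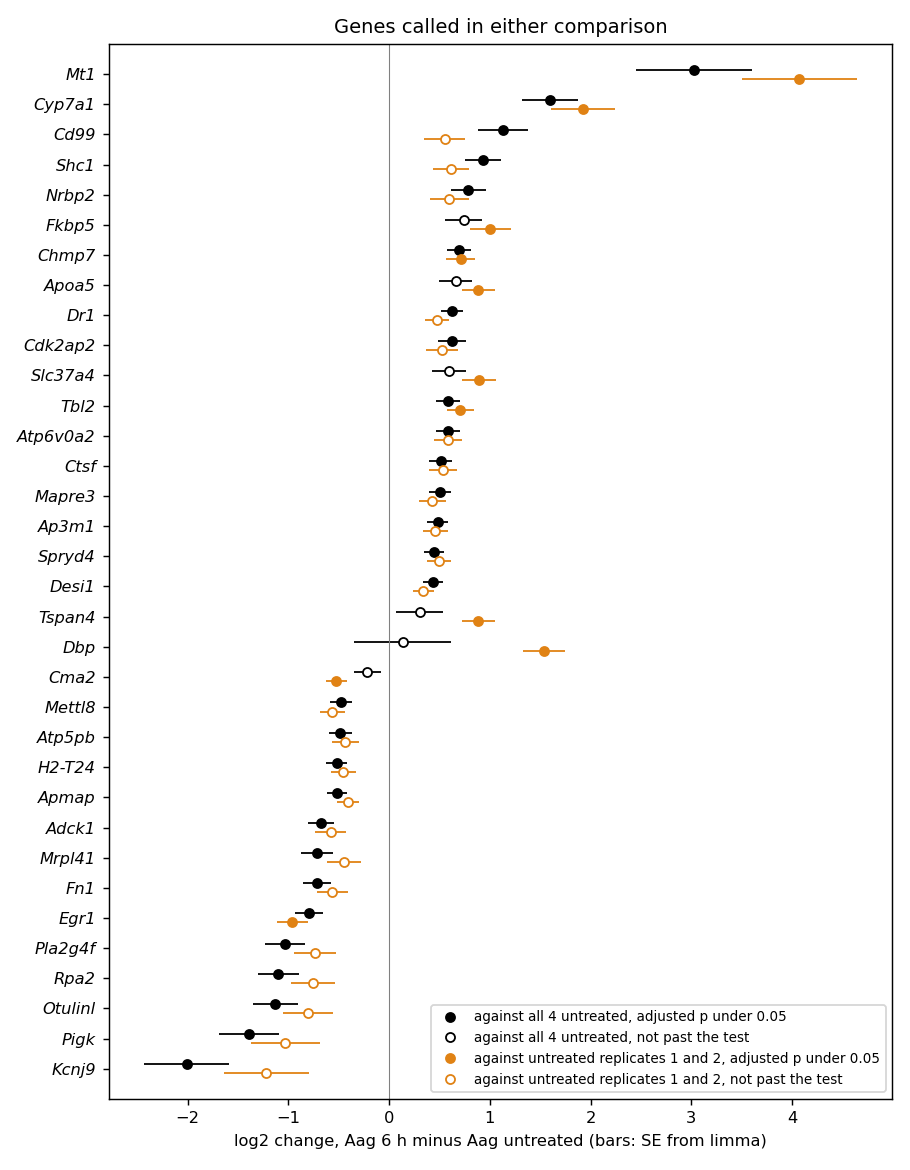
log2 change (x axis) of the 34 genes called in either comparison, Aag 6 h minus Aag untreated, with SE bars from limma; black against all 4 untreated arrays, orange against untreated replicates 1 and 2, filled where adjusted p was under 0.05. Mt1 (3.03 and 4.07) and Cyp7a1 (1.60 and 1.92) have the largest positive changes against all 4 untreated arrays, and Dbp is at 0.14 against all 4 and at 1.53 against replicates 1 and 2.

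Mt1, a metallothionein, had 10.40, 11.58 and 9.63 in Aag 6 h livers, against 6.62, 6.31, 9.02 and 8.10 in Aag untreated livers. Every treated array was above every untreated array, and untreated replicates 3 and 4 were the higher untreated pair. It rose 8.15-fold against all 4 (log2 3.03, SE 0.57, adjusted p = 0.0171) and 16.8-fold against replicates 1 and 2 (log2 4.07, SE 0.57, adjusted p = 0.00157). Against replicates 1 and 2 its call held under each of the 5 single arrays left out, with a log2 change of 3.55 to 4.53. Among the other settings run against that pair, 2 ended the call. Against all 4 the call held in 5 of 7 and was lost without Aag 6 h replicate 1 or 2, where the highest adjusted p was 0.0815.

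Mt2, the neighbouring metallothionein, had 8.32, 10.67 and 7.74 in Aag 6 h livers, against 6.47, 6.15, 8.56 and 7.72 in Aag untreated livers. Its groups overlapped through untreated replicate 3, and replicate 4 lay just below the lowest treated array, while all 3 treated arrays were above replicates 1 and 2. Mt2 was not called, with a log2 difference of 1.68 against all 4 (SE 0.59, adjusted p = 0.194) and 2.60 against replicates 1 and 2 (SE 0.64, adjusted p = 0.156). For both metallothioneins the highest of the 7 arrays was Aag 6 h replicate 2. Of 6 tested genes of metallothioneins and zinc transporters, Mt1 alone was called, and the median log2 change of the 6 was 0.15 against all 4 and 0.06 against replicates 1 and 2. The medians over all 5487 genes were 0.00 and -0.02.

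Cyp7a1, the hydroxylase whose activity limits how fast cholesterol becomes bile acid, had 5.38, 5.30 and 5.39 in Aag 6 h livers, against 3.20, 3.67, 4.07 and 4.11 in Aag untreated livers. The treated arrays were close together and all above the untreated ones. It rose 3.02-fold against all 4 (log2 1.60, SE 0.28, adjusted p = 0.0139) and 3.79-fold against replicates 1 and 2 (log2 1.92, SE 0.32, adjusted p = 0.00914). The second call was lost without Aag 6 h replicate 3 or Aag untreated replicate 1, where the highest adjusted p was 0.241. Of the other 16 bile acid synthesis and transport genes tested, none was called by limma in either comparison, and the list of 17 had a median of -0.05 and -0.04. At an unadjusted p under 0.05 the 17 gave 2 higher and 3 lower against all 4, and 2 higher and 1 lower against replicates 1 and 2. Cyp8b1, the sterol hydroxylase that sets the kind of bile acid made and a gene chosen after its values were seen, had 7.88, 8.64 and 8.57 in Aag 6 h livers, against 8.58, 8.05, 7.38 and 8.53 in Aag untreated livers.

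**Figure D2:**
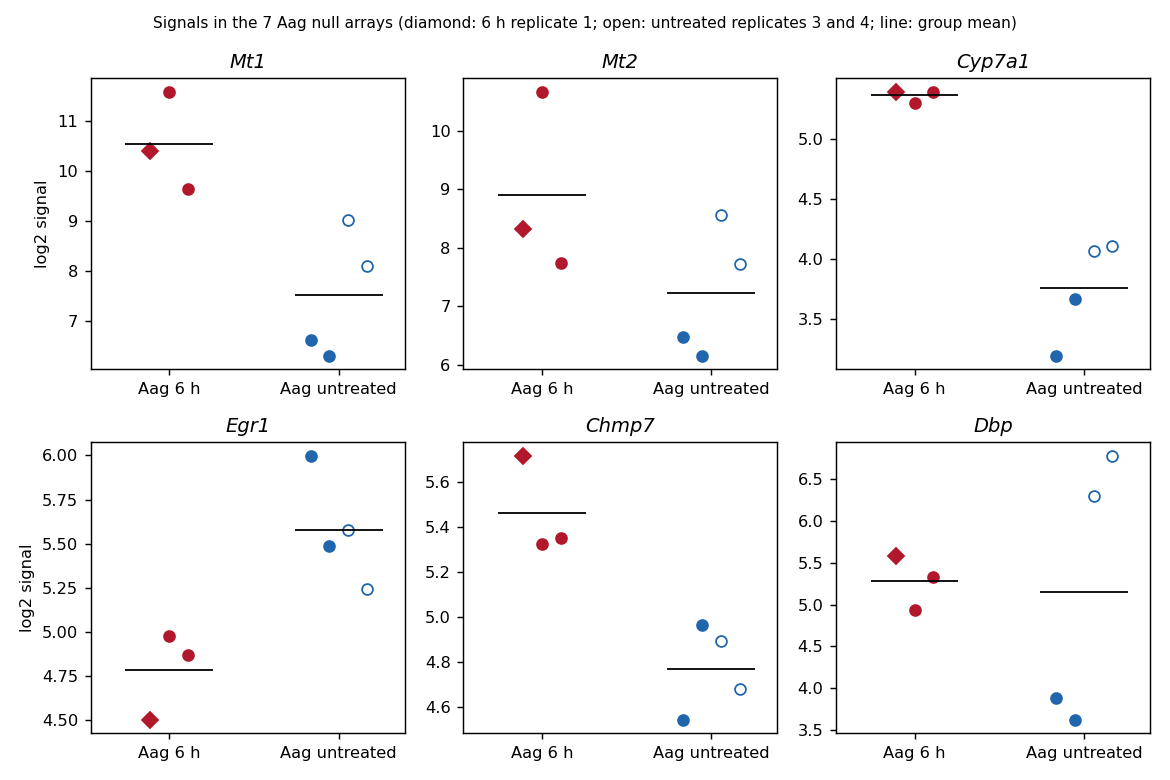
log2 signal (y axis, own scale in each panel) of 6 genes in the 3 Aag 6 h arrays (red, left) and the 4 Aag untreated arrays (blue, right), with a line at each group mean; the diamond is Aag 6 h replicate 1 and open circles are untreated replicates 3 and 4. Mt1, Cyp7a1 and Chmp7 lie above, and Egr1 lies below, all 4 untreated arrays, while the 3 Dbp values lie between the untreated pairs.

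Egr1, an immediate early zinc finger transcription factor, had 4.50, 4.97 and 4.87 in Aag 6 h livers, against 6.00, 5.48, 5.58 and 5.24 in Aag untreated livers. The groups did not overlap. It fell by 0.79 on the log2 scale against all 4 (SE 0.14, adjusted p = 0.0139) and by 0.96 against replicates 1 and 2 (SE 0.15, adjusted p = 0.00602). The second call was lost without Aag untreated replicate 1 (adjusted p = 0.241). A second, dimmer Egr1 probe set differed by -0.09 and 0.01. With the mean of probe sets Egr1 was not among the 5044 genes tested. Of 26 tested immediate early and inflammatory genes, Egr1 alone was called, and the median of the list was -0.10 against all 4 and -0.02 against replicates 1 and 2.

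Chmp7, a membrane-remodelling ESCRT protein of the nuclear envelope, had 5.72, 5.33 and 5.35 in Aag 6 h livers, against 4.54, 4.96, 4.89 and 4.68 in Aag untreated livers. It rose by 0.70 on the log2 scale against all 4 (SE 0.12, adjusted p = 0.0139) and by 0.71 against replicates 1 and 2 (SE 0.14, adjusted p = 0.0349), while its other probe set differed by 0.24 and 0.19. Tbl2, a WD-repeat protein, had 4.39, 4.17 and 4.14 in Aag 6 h livers, against 3.59, 3.46, 3.73 and 3.81 in Aag untreated livers. No treated value of either gene reached into the untreated range. Tbl2 rose by 0.59 against all 4 (SE 0.12, adjusted p = 0.0186) and by 0.71 against replicates 1 and 2 (SE 0.13, adjusted p = 0.0269). Against all 4 the Tbl2 call was lost without any 1 of the Aag 6 h arrays or without Aag untreated replicate 3. Against replicates 1 and 2 the Chmp7 call was lost without Aag 6 h replicate 1 or 3 or Aag untreated replicate 1, and the Tbl2 call also without Aag untreated replicate 2.

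The other 11 genes called higher against all 4 were not called against replicates 1 and 2. Cd99, a cell-surface glycoprotein, had 6.17, 6.20 and 6.10 in Aag 6 h livers, against 5.33, 5.88, 4.37 and 4.54 in Aag untreated livers (log2 1.13, SE 0.25, adjusted p = 0.036). Shc1, an adaptor of receptor tyrosine kinases, had 4.83, 4.97 and 5.19 in Aag 6 h livers, against 4.11, 4.66, 3.56 and 3.92 in Aag untreated livers (log2 0.93, SE 0.18, adjusted p = 0.0185). In both genes untreated replicates 1 and 2 lay closer to the treated arrays than replicates 3 and 4 did, and the log2 difference from replicates 1 and 2 was 0.55 for Cd99 (adjusted p = 0.415) and 0.61 for Shc1 (adjusted p = 0.269). Both calls against all 4 held in 2 of the 7 fits that left out 1 array, those without Aag untreated replicate 1 or 2.

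Nrbp2, a pseudokinase, rose by 0.79 against all 4 (SE 0.17), Dr1, a repressor of transcription initiation, by 0.62 (SE 0.11) and Cdk2ap2, a Cdk2-associated protein, by 0.62 (SE 0.13). Atp6v0a2, a subunit of the vacuolar proton pump, had 6.35, 6.22 and 5.96 in Aag 6 h livers, against 5.51, 5.67, 5.50 and 5.69 in Aag untreated livers, and rose by 0.58 (SE 0.12, adjusted p = 0.0186). Ctsf, the protease cathepsin F, rose by 0.51 (SE 0.12), and Ap3m1, a subunit of the adaptor complex AP-3, by 0.48 (SE 0.10). The microtubule end-binding Mapre3 rose by 0.51 (SE 0.11), Spryd4 by 0.45 (SE 0.10) and the deSUMOylating enzyme Desi1 by 0.44 (SE 0.10). Their log2 differences from replicates 1 and 2 ran from 0.34 for Desi1 to 0.60 for Nrbp2. The other 2 probe sets of Atp6v0a2 differed by 0.23 and -0.01 against all 4, and that of Desi1 by 0.13. With the mean of probe sets both calls ended, at adjusted p = 0.205 for Atp6v0a2 and 0.0845 for Desi1. Over fits that left out 1 of the 7 arrays, Spryd4 kept its call in 1, Cdk2ap2, Ctsf, Ap3m1 and Desi1 in 2, and Nrbp2, Dr1, Atp6v0a2 and Mapre3 in 3. Each of these 9 lost it without Aag 6 h replicate 1 and without Aag untreated replicate 3 or 4.

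Among the 13 genes called lower, the inward-rectifier potassium channel Kcnj9 had the largest change. It had 3.91, 4.73 and 4.76 in Aag 6 h livers, against 5.48, 5.88, 7.24 and 7.29 in Aag untreated livers. The treated arrays were below all untreated arrays, and replicate 1 was the lowest of them. Kcnj9 fell by 2.01 on the log2 scale against all 4 (SE 0.42, adjusted p = 0.0279). The difference from replicates 1 and 2 was -1.22 (SE 0.42, adjusted p = 0.368), and a second Kcnj9 probe set differed by -0.10 and -0.22. Otulinl, an inactive relative of a linear-ubiquitin protease, fell by 1.13 (SE 0.23, adjusted p = 0.0186), and its other 2 probe sets, both dim, differed by 0.14 and 0.00. With the mean of probe sets Otulinl was not among the genes tested. The Kcnj9 call held in 2 of 7 fits that left out 1 array, those without Aag untreated replicate 1 or 2, and the Otulinl call was lost without Aag 6 h replicate 1 or Aag untreated replicate 3 or 4.

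Pigk, a subunit of the enzyme that attaches glycolipid anchors to proteins, had 4.06, 4.70 and 4.85 in Aag 6 h livers, against 5.41, 5.73, 6.22 and 6.34 in Aag untreated livers, and fell by 1.39 (SE 0.30, adjusted p = 0.0316). Rpa2, the middle subunit of replication protein A, which coats single-stranded DNA in replication and repair, had 3.39, 4.06 and 3.95 in Aag 6 h livers, against 4.20, 4.91, 5.17 and 5.31 in Aag untreated livers. It fell by 1.10 against all 4 (SE 0.21, adjusted p = 0.0171), and differed by -0.76 from replicates 1 and 2 (SE 0.22, adjusted p = 0.259). The order was alike in both genes: Aag 6 h replicate 1 was the lowest array and untreated replicates 3 and 4 were the highest. Rpa2 lost its call without any 1 of those 3 arrays, and Pigk also without Aag 6 h replicate 2 or 3.

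Pla2g4f, a cytosolic phospholipase, fell by 1.03 (SE 0.20) and fibronectin, Fn1, a matrix and plasma protein, by 0.72 (SE 0.13). Fn1 had 5.88, 6.10 and 6.27 in Aag 6 h livers, against 6.58, 6.72, 6.95 and 6.96 in Aag untreated livers. The mitochondrial ribosomal protein Mrpl41 fell by 0.71 (SE 0.16), the kinase-like Adck1 by 0.67 (SE 0.13), the ATP synthase subunit Atp5pb by 0.48 (SE 0.11) and the RNA methyltransferase Mettl8 by 0.48 (SE 0.11). The membrane protein Apmap fell by 0.52 (SE 0.10) and the class I histocompatibility gene H2-T24 by 0.52 (SE 0.10). The other 2 probe sets of Adck1 differed by -0.03 and -0.29, and that of Mettl8 by -0.11. With the mean of probe sets both calls ended, at adjusted p = 0.204 for Adck1 and 0.0724 for Mettl8. Over fits that left out 1 of the 7 arrays, Atp5pb and Mettl8 kept the call in 1, Mrpl41, Apmap and H2-T24 in 2, Adck1 and Fn1 in 3 and Pla2g4f in 4. Each of these 8 lost it without Aag 6 h replicate 1 and without Aag untreated replicate 3 or 4. Against replicates 1 and 2 these 12 genes, Egr1 left aside, had negative differences and were not called.

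All 28 genes had treated values outside the range of the 4 untreated arrays, where 3.92% of all genes lay above and 4.37% below. The 11 genes called against replicates 1 and 2 lay outside the range of that pair, where 9.91% of all genes lay above and 12.3% below. The ranges come from the same values that gave the calls, so they add no separate evidence.

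The other 6 genes called against untreated replicates 1 and 2 had untreated pairs that differed. Dbp, a transcription factor that relays the circadian clock to liver genes, had 5.58, 4.93 and 5.33 in Aag 6 h livers, against 3.88, 3.62, 6.30 and 6.79 in Aag untreated livers. The treated values lay above untreated replicates 1 and 2 and below replicates 3 and 4. Dbp rose 2.89-fold against replicates 1 and 2 (log2 1.53, SE 0.21, adjusted p = 0.00157) and differed by 0.14 from all 4 (SE 0.48, adjusted p = 0.942). Tspan4, a tetraspanin, had 7.01, 7.20 and 7.04 in Aag 6 h livers, against 6.18, 6.22, 7.37 and 7.36 in Aag untreated livers, the same order. It rose by 0.88 against replicates 1 and 2 (SE 0.16, adjusted p = 0.0269). Cma2, a mast cell chymase gene, had 4.85, 4.66 and 4.84 in Aag 6 h livers, against 5.22, 5.40, 4.78 and 4.61 in Aag untreated livers, and fell by 0.53 against replicates 1 and 2 (SE 0.10, adjusted p = 0.0349). The Dbp call held under each of the 5 arrays left out, while those of Tspan4 and Cma2 held under none of them.

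Fkbp5, Slc37a4 and Apoa5 also rose against replicates 1 and 2, and had the same sign against all 4. Fkbp5, a cochaperone of the glucocorticoid receptor that glucocorticoids induce, had 6.51, 5.74 and 6.16 in Aag 6 h livers, against 4.92, 5.34, 5.75 and 5.57 in Aag untreated livers. Its replicate 2 at 6 h lay just below untreated replicate 3, and it rose 2.01-fold against replicates 1 and 2 (log2 1.00, SE 0.20, adjusted p = 0.0349), with 0.74 against all 4 (adjusted p = 0.0604). Slc37a4, which carries glucose 6-phosphate into the endoplasmic reticulum, had 8.40, 7.87 and 8.49 in Aag 6 h livers, against 7.34 and 7.38 in Aag untreated replicates 1 and 2 and a mean of 7.96 in Aag untreated replicates 3 and 4. It rose by 0.89 against replicates 1 and 2 (SE 0.17, adjusted p = 0.0271), where the groups did not overlap. Apoa5, an apolipoprotein of triglyceride clearance, had 10.28, 10.02 and 10.24 in Aag 6 h livers, against 9.27, 9.32, 9.98 and 9.52 in Aag untreated livers. All 3 of its probe sets differed by 0.70 to 0.89 from replicates 1 and 2, and the one tested rose by 0.89 (SE 0.17, adjusted p = 0.0269). The calls of Fkbp5, Slc37a4 and Apoa5 were lost under every array left out other than Aag 6 h replicate 2.

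Gene lists written from general knowledge are described by counts and medians, beside 0.00 against all 4 and -0.02 against replicates 1 and 2 for all genes. At an unadjusted limma p under 0.05, 6.98% of all genes were higher and 6.89% lower against all 4. Against replicates 1 and 2 the shares were 4.63% and 3.94%. The unfolded protein response had the largest median of the lists plotted, 0.43 against all 4 and 0.46 against replicates 1 and 2, yet none of its 23 genes was called by limma in either comparison. At an unadjusted p under 0.05, 8 were higher and 0 lower against all 4, and 3 were higher and 1 lower against replicates 1 and 2. Aag 6 h replicate 1 was the highest of the 7 arrays for 20 of the 23 genes (87%), against 22.6% of all genes. The list averaged 6.66, 5.54 and 5.93 in Aag 6 h livers, against 5.44, 5.91, 5.61 and 5.61 in Aag untreated livers. Without Aag 6 h replicate 1 the medians were 0.10 and 0.11.

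Hspa5, whose promoter is shown above, had 9.08, 7.61 and 8.33 in Aag 6 h livers, against 7.17, 8.34, 7.98 and 7.42 in Aag untreated livers. Replicate 1 was above every other array and replicates 2 and 3 lay within the untreated range. The log2 difference was 0.61 against all 4 (SE 0.30, adjusted p = 0.359), 0.24 without replicate 1, and 0.58 against replicates 1 and 2 (SE 0.36, adjusted p = 0.701). Dnajb9, a cochaperone of Hspa5, had 6.35, 5.35 and 6.03 in Aag 6 h livers, against 3.65, 5.52, 3.11 and 3.48 in Aag untreated livers. Untreated replicate 2 was the exception to the separation, and the log2 difference was 1.97 against all 4 (SE 0.50, adjusted p = 0.0659) and 1.32 against replicates 1 and 2 (SE 0.57, adjusted p = 0.527).

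**Figure D3:**
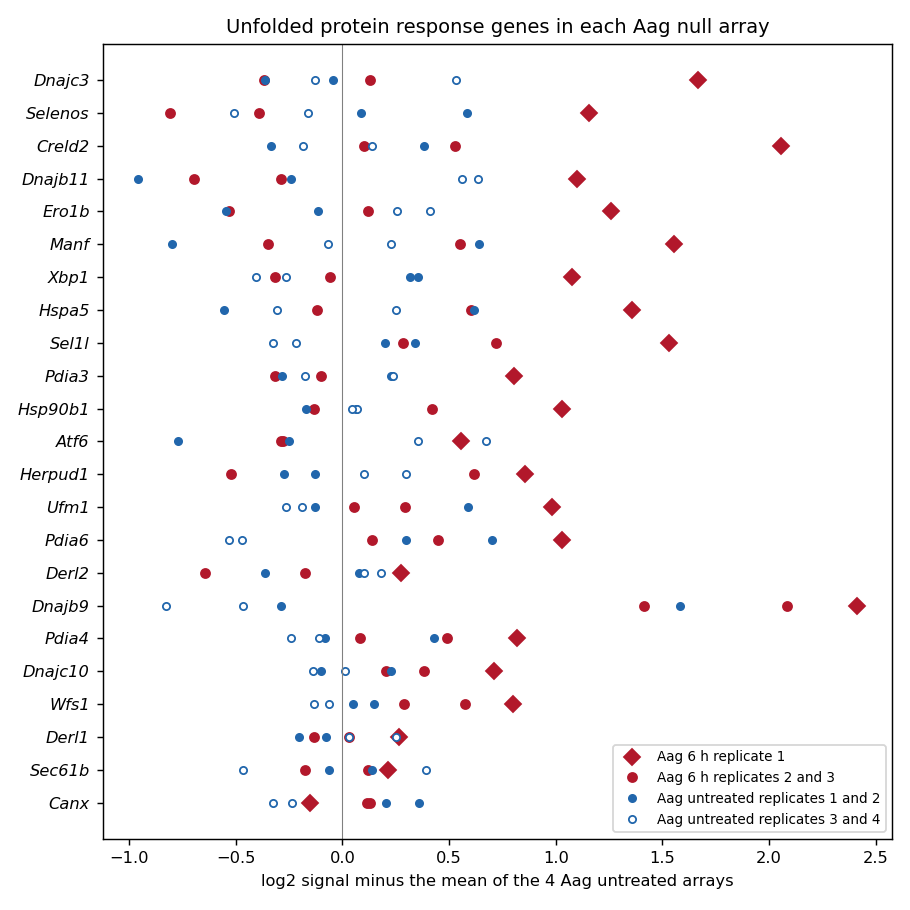
log2 signal minus the mean of the 4 Aag untreated arrays (x axis) for the 23 tested unfolded protein response genes, 1 point per array; diamonds are Aag 6 h replicate 1, red circles Aag 6 h replicates 2 and 3, blue circles untreated arrays (open for replicates 3 and 4). The diamond is the highest of 7 in 20 of 23 genes, while Aag 6 h replicates 2 and 3 mix with the untreated arrays for most genes.

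Wfs1, an endoplasmic reticulum membrane protein, had no overlap: the values were 5.25, 4.74 and 5.03 in Aag 6 h livers, against 4.50, 4.60, 4.32 and 4.39 in Aag untreated livers (log2 0.55, SE 0.13, adjusted p = 0.0523; 0.46 against replicates 1 and 2, adjusted p = 0.364). The ATF4 arm, 14 genes that respond to phosphorylated eIF2, had 0 called in either comparison by limma, with 1 higher at an unadjusted p under 0.05 in each, and medians of 0.11 and 0.05. Ddit3, its death-linked factor Chop, differed by 0.32 (SE 0.14, adjusted p = 0.289) and Atf3 by -0.30 (SE 0.24, adjusted p = 0.63), with 0.20 and -0.39 against replicates 1 and 2. Of 27 heat shock genes 0 were called, 3 had an unadjusted p under 0.05 on the higher side in each comparison, and the medians were 0.11 and 0.10. Aag 6 h replicate 1 was the highest of 7 arrays for 51.9% of heat shock genes and 51.6% of the 31 proteasome genes, against 22.6% of all genes.

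The p53 response was asked of 22 tested target genes, and 0 were called by limma in either comparison. Against all 4 untreated arrays 3 had an unadjusted p under 0.05, and against replicates 1 and 2 none did. The medians were 0.07 and 0.01. Mdm2, the ubiquitin ligase that restrains p53, had 4.58, 4.14 and 4.18 in Aag 6 h livers, against 4.02, 3.94, 3.67 and 3.96 in Aag untreated livers. Its groups did not overlap, but the log2 difference of 0.40 missed the threshold (SE 0.17, adjusted p = 0.288), as did 0.32 against replicates 1 and 2 (adjusted p = 0.717). Cdkn1a, the cell cycle inhibitor p21, had 5.90, 6.39 and 6.37 in Aag 6 h livers, against 6.61, 6.15, 6.19 and 6.17 in Aag untreated livers (log2 -0.06, SE 0.16, adjusted p = 0.924). The Cdkn1a difference was -0.16 against replicates 1 and 2 (adjusted p = 0.847), and 0.10 against all 4 without Aag 6 h replicate 1. A second, dimmer Cdkn1a probe set differed by 0.20 against all 4 and by -0.003 against replicates 1 and 2. Ccng1 was below the filter, with 2.76, 1.98 and 1.66 in Aag 6 h livers, against 1.84, 1.73, 1.86 and 1.85 in Aag untreated livers, and Bax and Gdf15 were not analysed here.

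Of 11 tested genes of base excision and alkylation repair 0 were called, 2 were lower at an unadjusted p under 0.05 against all 4, 1 was lower against replicates 1 and 2, and the medians were -0.03 and -0.08. Ung, the uracil glycosylase, had 5.95, 6.57 and 6.28 in Aag 6 h livers, against 6.88, 6.66, 7.43 and 7.60 in Aag untreated livers (log2 -0.88, SE 0.24, adjusted p = 0.084). Against replicates 1 and 2 the difference was -0.50 (SE 0.25, adjusted p = 0.613), and a second Ung probe set differed by 0.44 against all 4. Parp1, which senses DNA strand breaks, differed by -0.35 (SE 0.17, adjusted p = 0.353), the scaffold Xrcc1 by -0.39 (SE 0.21, adjusted p = 0.426) and the nuclease Apex1 by -0.12 (SE 0.21, adjusted p = 0.861). Against replicates 1 and 2 these 3 differences were -0.42, -0.36 and -0.08, with adjusted p of 0.532, 0.759 and 0.949. A second Xrcc1 probe set of like brightness differed by -0.18 against all 4 and by -2.9e-05 against replicates 1 and 2. Mgmt, the methyltransferase that repairs O6-methylguanine, and the repair polymerase Polb were too dim to test. Of 27 other repair and replication genes, Rpa2 was the 1 called, lower, and of 13 cell cycle genes 0 were called (1 higher and 1 lower at an unadjusted p under 0.05 against all 4, none against replicates 1 and 2).

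The PPARalpha and circadian lists had untreated pairs that differed. The 29 tested targets of PPARalpha, a fatty acid sensor that drives fat oxidation, had a median of -0.27 against all 4 and 0.00 against replicates 1 and 2, with 0 called in either. At an unadjusted p under 0.05, 1 was higher and 9 lower against all 4, while 2 were higher and 0 lower against replicates 1 and 2. The list averaged 6.60, 6.37 and 6.56 in Aag 6 h livers, against 6.40, 6.37, 7.17 and 7.13 in Aag untreated livers. Untreated replicates 3 and 4 were both above replicates 1 and 2 for 23 of the 29 genes (79.3%), against 28.5% of all genes. Fabp1, the liver fatty acid binding protein, had 10.08, 10.07 and 10.20 in Aag 6 h livers, against 10.47, 10.32, 11.63 and 11.53 in Aag untreated livers (log2 -0.87, SE 0.26, adjusted p = 0.109; -0.28 against replicates 1 and 2, adjusted p = 0.772). Its treated arrays lay below all 4, and closer to replicates 1 and 2.

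Of the 14 tested circadian clock and output genes, Dbp was called against replicates 1 and 2 and 0 against all 4, and the medians were 0.20 and 0.27. At an unadjusted p under 0.05, 5 were higher against all 4 and 6 against replicates 1 and 2, with 0 lower in both. Replicates 3 and 4 were above replicates 1 and 2 for 9 of the 14 (64.3%), against 28.5% of all genes. Bhlhe40, a clock repressor, had 5.56, 4.87 and 5.45 in Aag 6 h livers, against 4.25, 4.21, 5.08 and 5.24 in Aag untreated livers (log2 1.06 against replicates 1 and 2, SE 0.29, adjusted p = 0.207). The time of day of sampling is not given in the labels and its part was not tested.

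The 22 tested glucocorticoid receptor targets included Mt1, called in both comparisons, and Fkbp5, called against replicates 1 and 2, with medians of 0.04 and 0.12. Of all genes, 0.273% were called higher against all 4 and 0.164% against replicates 1 and 2. In this list 5 were higher and 1 lower at an unadjusted limma p under 0.05 against all 4. Against replicates 1 and 2, 6 were higher and 1 lower. Mt1 was also counted among the metallothioneins. Tat, the tyrosine aminotransferase of amino acid breakdown, had 10.24, 10.32 and 10.50 in Aag 6 h livers, against 9.34, 9.69, 9.22 and 9.49 in Aag untreated livers. Its groups did not overlap, and the log2 difference was 0.92 against all 4 (SE 0.24, adjusted p = 0.0756) and 0.84 against replicates 1 and 2 (SE 0.30, adjusted p = 0.384). Of 29 NRF2 antioxidant targets 0 were called in either comparison, with 5 higher and 2 lower at an unadjusted p under 0.05 against all 4 and 3 higher and 0 lower against replicates 1 and 2. Pgd, which makes NADPH, had 6.21, 6.34 and 6.39 in Aag 6 h livers, against 6.20, 5.87, 5.57 and 5.69 in Aag untreated livers (log2 0.48, SE 0.12, adjusted p = 0.0604). Against replicates 1 and 2 the Pgd difference was 0.28 (SE 0.12, adjusted p = 0.521). Hmox1, the heme-degrading enzyme, differed by 0.30 (SE 0.12, adjusted p = 0.26), and by 0.22 against replicates 1 and 2 (adjusted p = 0.719).

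**Figure D4:**
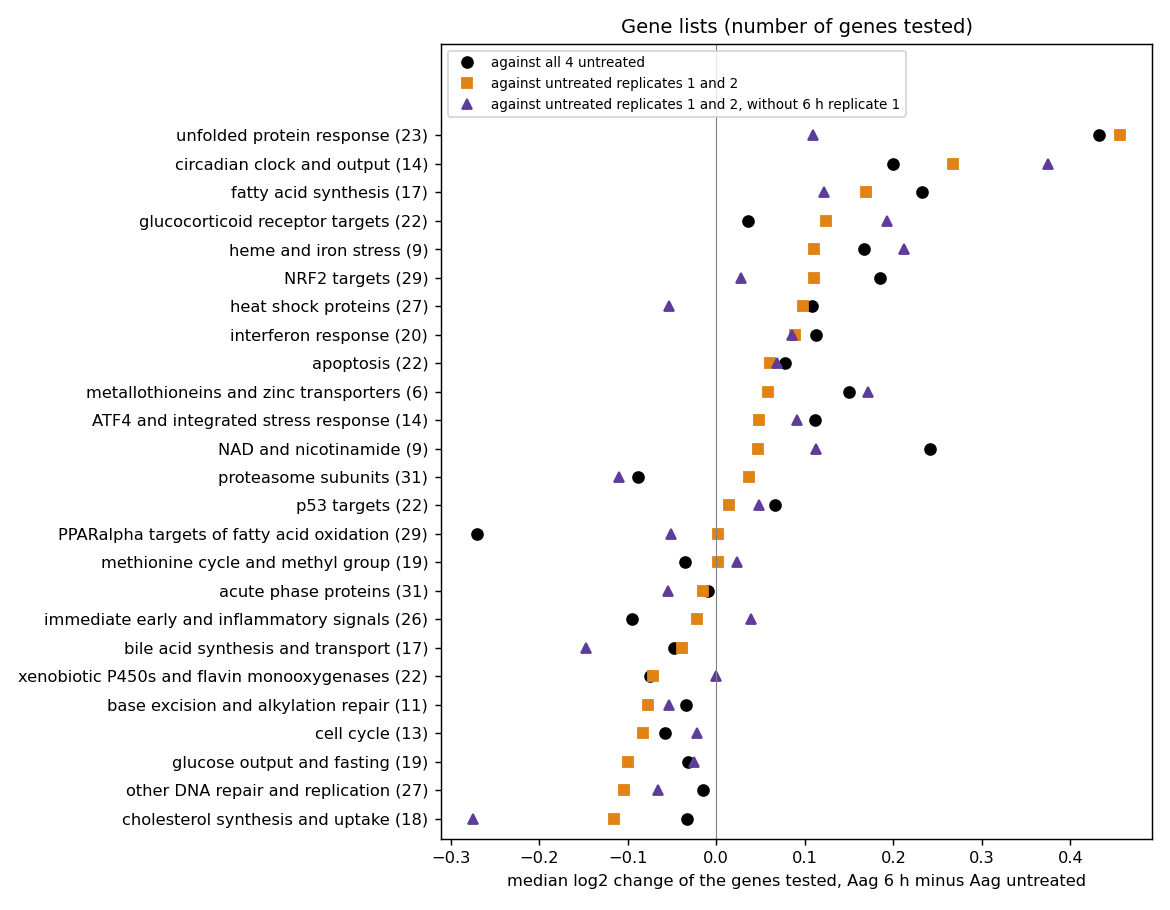
Median log2 change (x axis) over the tested genes of each list (number in brackets), Aag 6 h minus Aag untreated: circles against all 4 untreated arrays, squares against untreated replicates 1 and 2, triangles against replicates 1 and 2 without Aag 6 h replicate 1. The unfolded protein response is at 0.43 and 0.46, and at 0.11 without that array; PPARalpha targets are at -0.27 against all 4 and 0.00 against replicates 1 and 2.

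Markers of other cell types gave 0 calls in either comparison by limma. Averages of the 14 tested macrophage markers ran from 5.29 to 5.60 in Aag 6 h arrays and from 5.27 to 5.69 in Aag untreated arrays. Those of 12 lymphocyte markers ran from 4.64 to 5.12 in Aag 6 h arrays and from 4.86 to 5.15 in Aag untreated arrays. Aag 6 h replicate 1 was the lowest of 7 arrays for 9 of the 12 (75%), against 30.7% of all genes. That array was also lowest for 62.5% of endothelial and 62.5% of neutrophil markers. The share was 43.8% for stellate cell and matrix markers, 35.7% for macrophage markers and 7.69% for hepatocyte markers. The 8 endothelial markers averaged 4.88 to 5.04 in Aag 6 h arrays and 5.08 to 5.28 in Aag untreated arrays, without overlap, with 2 lower at an unadjusted p under 0.05 against all 4 and 1 against replicates 1 and 2. The 16 stellate cell and matrix markers averaged 5.16 to 5.39 in Aag 6 h arrays and 5.31 to 5.45 in Aag untreated arrays. Fn1, which fell, is also made by hepatocytes. The part of the cell mixture in the 28 calls was not tested.

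Later Aag null livers place the 6 h values in time. These comparisons share the Aag 6 h arrays with those above. Against Aag 12 h, 1 gene was called (0.0182%), with 104 at an unadjusted p under 0.05 (1.90%). Gabarapl1, an autophagosome protein, had 8.56, 8.77 and 8.48 in Aag 6 h livers, against 7.66 and 7.72 in Aag 12 h livers, and was higher at 6 h by 0.91 (SE 0.15, adjusted p = 0.0226). Its 6 h mean of 8.60 ± 0.15 (SD, n = 3) was close to the untreated mean of 8.58 ± 0.28 (SD, n = 4).

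Against Aag 48 h, 11 genes were called (0.200%), 9 higher (0.164%) and 2 lower (0.0364%) at 6 h. Atf5, a stress-induced transcription factor, had 5.80, 6.31 and 5.81 in Aag 6 h livers, against 4.84, 4.32 and 4.52 in Aag 48 h livers, and was higher by 1.42 (SE 0.21, adjusted p = 0.00361). Its difference from untreated liver at 6 h missed the threshold (log2 0.30, SE 0.20, adjusted p = 0.527). Also higher were Kdelr2, the receptor that returns endoplasmic reticulum proteins from the Golgi (0.97, SE 0.16), the adaptor Apba3 (0.95, SE 0.17), Cdk2ap2 (0.94, SE 0.14) and the disulfide isomerase Pdia4 (0.88, SE 0.18). Cyp2b10, a cytochrome P450 induced by phenobarbital, had 4.93, 5.37 and 5.31 in Aag 6 h livers, against 6.83, 6.22 and 6.82 in Aag 48 h livers. It was lower at 6 h by -1.42 (SE 0.29, adjusted p = 0.0416), and Lpp, a focal adhesion protein, by -0.54 (SE 0.11, adjusted p = 0.0462). Mt1 differed by 2.72 from Aag 48 h (SE 0.61, adjusted p = 0.0707). Without Aag 6 h replicate 1 a single gene was called.

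**Figure D5:**
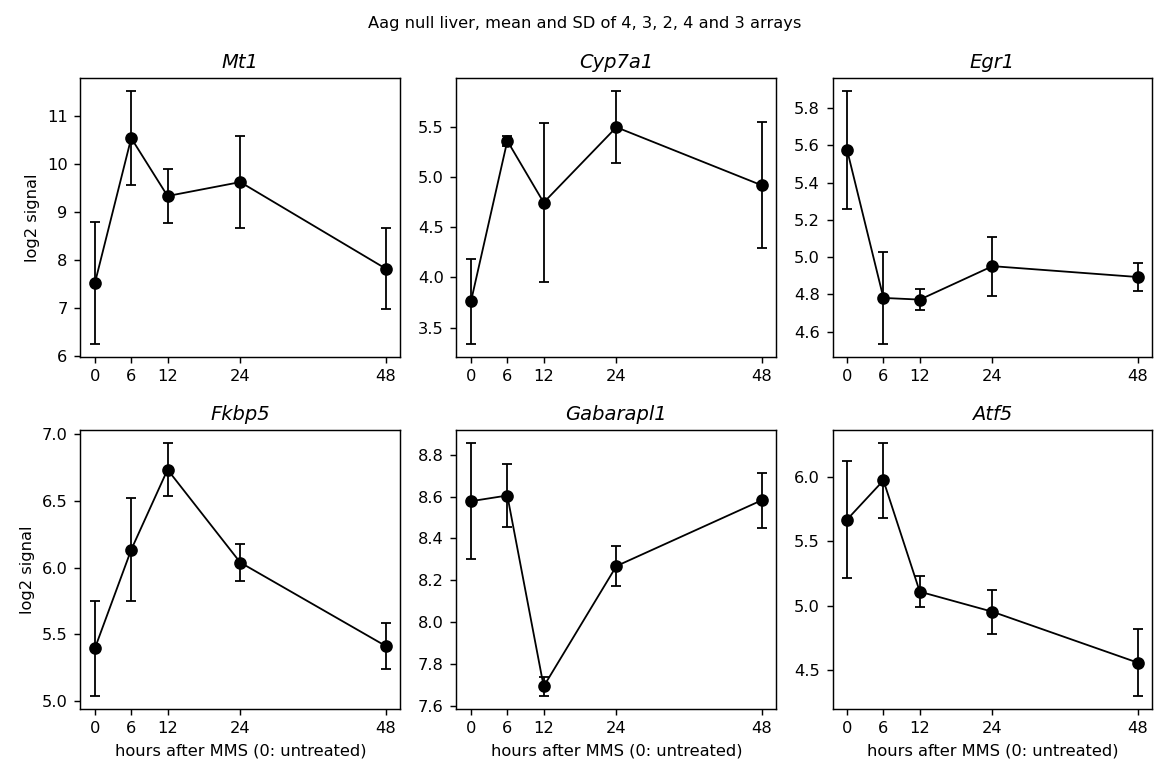
Mean log2 signal with SD bars (y axis, own scale in each panel) of 6 genes in Aag null liver, untreated (0, n = 4) and at 6 h (n = 3), 12 h (n = 2), 24 h (n = 4) and 48 h (n = 3) after MMS. Mt1 has its highest mean at 6 h (10.54), Fkbp5 at 12 h (6.73) and Gabarapl1 its lowest at 12 h (7.69), while Egr1 means after MMS lie from 4.77 to 4.95.

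In the order untreated, 6, 12, 24 and 48 h, Mt1 means were 7.51, 10.54, 9.33, 9.62 and 7.82, and Cyp7a1 means were 3.76, 5.36, 4.74, 5.49 and 4.92. The 24 h group held 2 arrays with female-typical transcripts (Cyp2b9 at 7.73 and 8.22), and without them its mean was 9.02 for Mt1 and 5.79 for Cyp7a1. Neither 6 h value was told apart by the test from that at 12 h (adjusted p = 1 for both). The SD of Cyp7a1 was 0.05 at 6 h and 0.79 at 12 h, so the narrow spread at 6 h was not shared by the next group. Egr1 means were 5.58, 4.78, 4.77, 4.95 (4.94 without those 2 arrays) and 4.89, and the 48 h difference from 6 h was within error (log2 -0.11, SE 0.15, adjusted p = 0.784).

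Aag null and WT livers at 6 h after MMS were also compared directly, where 10 genes were called (0.182%), 5 higher and 5 lower in Aag (0.0911% each). Cyp7a1 had 5.38, 5.30 and 5.39 in Aag 6 h livers, against 3.38 and 3.64 in WT 6 h livers, and was higher in Aag by 1.85 (SE 0.33, adjusted p = 0.0124). Upp2, a uridine phosphorylase, was higher by 1.62 (SE 0.34), Gamt, the last enzyme of creatine synthesis, by 1.03 (SE 0.14), the elongation factor Tcea3 by 0.76 (SE 0.13) and the peroxisomal membrane protein Pxmp2 by 0.56 (SE 0.11). Among the genes lower in Aag, Orm2, an orosomucoid, had 5.92, 6.45 and 5.64 in Aag 6 h livers, against 8.02 and 7.44 in WT 6 h livers (log2 -1.72, SE 0.34, adjusted p = 0.0336). Itih4, an inter-alpha inhibitor chain, had 8.27, 8.37 and 8.18 in Aag 6 h livers, against 9.88 and 9.56 in WT 6 h livers (log2 -1.44, SE 0.20, adjusted p = 0.000688). Serpina10, the protein Z inhibitor of coagulation, was lower by -1.09 (SE 0.14, adjusted p = 0.000374).

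Pdia4 had 7.29, 6.56 and 6.96 in Aag 6 h livers, against 8.22 and 7.63 in WT 6 h livers, and was lower in Aag (log2 -0.99, SE 0.20, adjusted p = 0.0454). The serum amyloid pseudogene probe set Saa-ps differed by -1.61 (SE 0.34, adjusted p = 0.0454) at dim signals of 2.99, 3.18 and 2.66 in Aag 6 h livers, against 4.83 and 4.27 in WT 6 h livers. Mt1 had 10.40, 11.58 and 9.63 in Aag 6 h livers, against 11.10 in both WT 6 h livers (log2 -0.56, SE 0.69, adjusted p = 0.993). The WT 6 h arrays were unlike each other, with a correlation across genes of 0.837, and 806 genes were called when WT 6 h replicate 1 was left out, or 18 when replicate 2 was. The test of whether the responses to MMS differ between genotypes was not run here, since untreated WT arrays all lie in the set with high hybridization controls.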

How the data were processed

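Total RNA of mouse liver was measured on 28 arrays of 12488 probe sets. The authors deposited log2 signals, 1 per probe set and array. The unit was taken from the values, which ran from 0.689 to 13.16. For image reading, summary and scaling, the labels name no method. The 66 controls were left out and the rest quantile normalized, since array medians spanned 0.215. Symbols came from the platform annotation (10855 probe sets with 1 symbol, 396 with several, 1237 with none). The brightest probe set stood for each of 8251 genes, and 5487 genes entered the tests, each brighter than the median of 2 or more arrays.

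The tests used limma 3.58.1 under R 4.3.3 (moderated test with trend, 1 mean per group, 28 arrays and 18 residual degrees of freedom; 26 and 16 for the comparison with untreated replicates 1 and 2), adjusted by Benjamini-Hochberg. The pipeline was tested on simulated data. Promoters were searched in Python 3.11.15 and figures drawn with matplotlib 3.10.9.

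The rule for named genes took Mpg, every gene called against all 4 or against replicates 1 and 2, up to 5 per direction in the other comparisons, up to 4 members of each list with the smallest p, and a set of stress and repair genes whatever their values. Members, lists and rules were chosen with earlier results of these data known. List medians without single arrays and 24 h means without female-typical arrays were added after seeing the data. Alternatives were other scalings, no filter, the mean of probe sets, a replicate block, array weights, fewer arrays in the fit, the array set as a term and single arrays left out.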

Additional observations from a re-analysis of the deposited data

Results flagged for a closer look

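For 2 named genes a single untreated array lay far from the other 3. H2-T24 was 4.10 in Aag untreated replicate 1, against 4.40 to 4.46 in the other Aag untreated arrays, so that array lay nearest to the Aag 6 h values. Spryd4 was 5.42 in Aag untreated replicate 2, against 5.59 in each of the other Aag untreated arrays. Chance marks about 1 in 20 groups by this measure of distance.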

How the results depend on the processing

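Counts of called genes moved with the setting. Against all 4 untreated arrays the count of 28 was 100 with the values as deposited (82 higher, 18 lower), 2 with replicate number as a block, 98 with array weights (36 higher, 62 lower), 0 in a fit of only these 7 arrays (417 at an unadjusted p under 0.05), 11 with a term for the array set, and 4 without the arrays with female-typical transcripts. With array weights Egr1, Chmp7 and Tbl2 were called, while Mt1 (limma adjusted p = 0.0720) and Cyp7a1 (0.0828) were not. With the replicate block the 2 called were Cyp7a1 and Egr1, and Mt1, Chmp7 and Tbl2 each had an adjusted p of 0.0519. Without the female-typical arrays Mt1, Cyp7a1 and Chmp7 were called, and Egr1 and Tbl2 were not. Only Aag untreated held arrays of both hybridization control sets, so the array set term repeated the changes against replicates 1 and 2. Mt1 was at 4.07, Cyp7a1 at 1.92, Dbp at 1.53 and Egr1 at -0.96 either way. That setting is therefore not a separate check of the comparison with replicates 1 and 2. Single arrays left out gave 0 to 133. Median centring, no filter and the mean of probe sets gave 42, 23 and 35. As deposited, the median change over all genes was 0.08 against all 4 and 0.09 against replicates 1 and 2. Against untreated replicates 1 and 2 the count of 11 was 5 with median centring, 5 with the replicate block, 5 with array weights, 1 with only the groups compared and 7 without female-typical arrays, with 2 to 15 over single arrays left out. Over all settings run against that pair, the Mt1 call was lost in 2, the Cyp7a1 call in 3, the Egr1 call in 3 and the Dbp call in 1.

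Against Aag 12 h the count of 1 was 0 as deposited, with median centring, with the replicate block and with only the groups compared (110 at an unadjusted p under 0.05), and 0 to 1 over single arrays. Against Aag 48 h the count of 11 was 7 without the filter, 6 with the replicate block, 158 with array weights and 0 with only the groups compared (583 at an unadjusted p under 0.05), and 1 to 9 over single arrays. Against WT 6 h the count of 10 was 4 as deposited, 2 with median centring, 5 with the replicate block, 0 with array weights (12 at an unadjusted p under 0.05) and 0 with only the groups compared (54), and 4 to 806 over single arrays. The estimate of array weights stopped before its tolerance was met.

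Replicate numbers were not taken to pair arrays: deviations of same-numbered Aag 6 h and Aag untreated arrays correlated at -0.43, 0.19 and -0.20. Of the named genes, Dbp changed sign against all 4 without being called: -0.19 with array weights, -0.01 without Aag 6 h replicate 1, -0.28 without Aag untreated replicate 1 and -0.37 without Aag untreated replicate 2, in a range of -0.37 to 0.68 over single arrays left out. The other genes called in either comparison, and Mt2, kept their sign under the settings run in both. Genes not called were not run under every setting. The causes were not tested beyond the smaller number of arrays in some fits.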

Other observations

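Aag 6 h replicate 2 carried the highest signals of several inflammatory genes, and these values were picked out after they were seen. Cxcl1, a chemokine that attracts neutrophils, had 5.47, 9.27 and 4.91 in Aag 6 h livers, against 5.74, 5.20, 4.49 and 4.73 in Aag untreated livers, so that replicate 2 alone was high (log2 1.51, SE 0.65, adjusted p = 0.295; 1.08 against replicates 1 and 2, adjusted p = 0.762). Saa2, a serum amyloid of the acute phase, had 6.85, 9.21 and 6.27 in Aag 6 h livers, against 7.10, 7.20, 6.19 and 6.34 in Aag untreated livers. Replicate 2 was the highest of the 7 arrays for 13 of 31 acute phase genes (41.9%), against 14.1% of all genes, and it was also the highest for Mt1 and Mt2.

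Hmgcs1, an early enzyme of cholesterol synthesis, had 6.30, 4.74 and 5.20 in Aag 6 h livers, against 6.52, 6.54, 6.71 and 6.19 in Aag untreated livers (log2 -1.08, SE 0.39, adjusted p = 0.2). Replicate 1 lay within the untreated range and replicates 2 and 3 below it. The difference was -1.52 without replicate 1 and -1.12 against untreated replicates 1 and 2 (adjusted p = 0.521), and 0 of 18 cholesterol genes were called by limma in either comparison (3 lower at an unadjusted p under 0.05 against all 4). Col3a1, a collagen of stellate cells, had 5.28, 5.55 and 5.40 in Aag 6 h livers, against 5.67, 6.28, 6.47 and 6.27 in Aag untreated livers, with no overlap (log2 -0.77, SE 0.20, adjusted p = 0.0726; -0.57 against replicates 1 and 2, adjusted p = 0.501). Pklr, the liver pyruvate kinase, had 6.59, 6.67 and 6.93 in Aag 6 h livers, against 6.26, 6.30, 5.95 and 6.00 in Aag untreated livers, also with no overlap (log2 0.60, SE 0.15, adjusted p = 0.0596; 0.45 against replicates 1 and 2, adjusted p = 0.421).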
